A study of Mus musculus with 12 samples.

Results

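The RNA of 10 genes was described in 12 pancreatic tumours. They were 9 matrix metalloproteinases (Mmp2, Mmp3, Mmp7, Mmp9, Mmp10, Mmp11, Mmp12, Mmp13 and Mmp14) and Timp1, an inhibitor of such enzymes. These 10 genes were taken by symbol from a table of 24956 gene symbols, and 10 of 10 passed the filter on low counts that left 12856 genes for testing. All tumours grew from PDA.69, a cell line made from pancreatic ductal adenocarcinoma of KPC mice (a mouse model engineered to develop this cancer), which its label calls T cell low. Wild-type (WT) hosts bore 6 of the tumours. The other 6 grew in Alb-Cre+/+ Stat3f/f hosts, in which Cre driven by the albumin promoter removes the floxed Stat3 from hepatocytes, so that the deletion lies in the liver of the host and not in the tumour line. The sources used here give no host age, no host sex, no graft site and no time of growth. Since no label says that the tumours are from separate mice, p-values cover the spread among these samples only, which may be technical. RNA came from fixed, paraffin-embedded sections and was read as 3' tags, so the counts are not proportional to transcript length and levels of different genes can be set side by side, up to differences in how well each 3' end is read.

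Matrix metalloproteinases are zinc-dependent endopeptidases that cut collagens, laminins, fibronectin, elastin and other matrix proteins, and also release growth factors and shed surface proteins. Most are secreted as inactive precursors whose propeptide is removed outside the cell by plasmin or another metalloproteinase, while furin-like convertases activate some, such as Mmp11 and Mmp14, inside the cell. The tissue inhibitors of metalloproteinases, of which Timp1 is one, bind the active enzymes. In pancreatic cancer both tumour cells and the cells of its dense stroma (fibroblasts, macrophages, neutrophils) make them, so a value in a whole tumour is a sum over these cells. In such bulk RNA, fewer cells of a type and less RNA per cell cannot be told apart.

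The libraries held 5691707 to 8085609 counts, and 15221 to 16688 genes had a count in a tumour. Markers of the labelled tumour epithelium were present: Krt7, a duct keratin, averaged 522 CPM (counts scaled to library size, here with TMM) in tumours of WT and 348 CPM in those of Alb-Cre Stat3f/f hosts, while Lgals4 was at 0. The share of counts in genes of the exocrine pancreas varied widely. The 20 acinar (digestive enzyme) genes, of which Amy2a5 was at 0, held 7.03% of WT counts on average and 25.2% of Alb-Cre Stat3f/f counts, a difference of 18.2 percentage points (exact two-sided permutation p = 0.0325 over 924 relabellings, of which the smallest possible p is 0.0022). Leaving out any 1 of WT 2, 3, 4 or 6 or Alb-Cre Stat3f/f 1, 2, 3 or 4 took this exact permutation p above 0.05, up to 0.0671. The share was over 15% in 5 tumours (Alb-Cre Stat3f/f 1, 2, 3, 4 and WT 5). Stat3 itself had a log2 fold change of 0.00 ± 0.10 (SE) in the tumours, which bears neither on the deletion in the liver nor, from a 3' tag, on the deleted part of the gene.

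Neither host genotype stood out in these genes. In the quasi-likelihood test of edgeR, Benjamini-Hochberg adjusted over all 12856 genes, 0 of the 10 genes passed as higher and 0 as lower in Alb-Cre Stat3f/f tumours, where 2.98% of all genes passed (2.23% as higher and 0.747% as lower). At an unadjusted p under 0.05, 1 gene (Mmp14) was found by edgeR and 1 (Mmp14) by DESeq2, in both as lower, against 19.4% of all genes by edgeR in either direction and 7.83% as lower. The log2 fold change (Alb-Cre Stat3f/f over WT) was above 0 for 3 and below 0 for 7 of them, with a median of -0.36 beside -0.00 over all genes tested, of which 50% lay below 0. For 0 of the 10 were the 6 values of one genotype all outside the 6 of the other, a pattern that 2.01% of all genes had. The widths of the 95% intervals differed greatly, from -0.43 to -0.01 for Mmp14 to -1.88 to 0.29 for Mmp10 on the log2 scale.

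**Figure D1:**
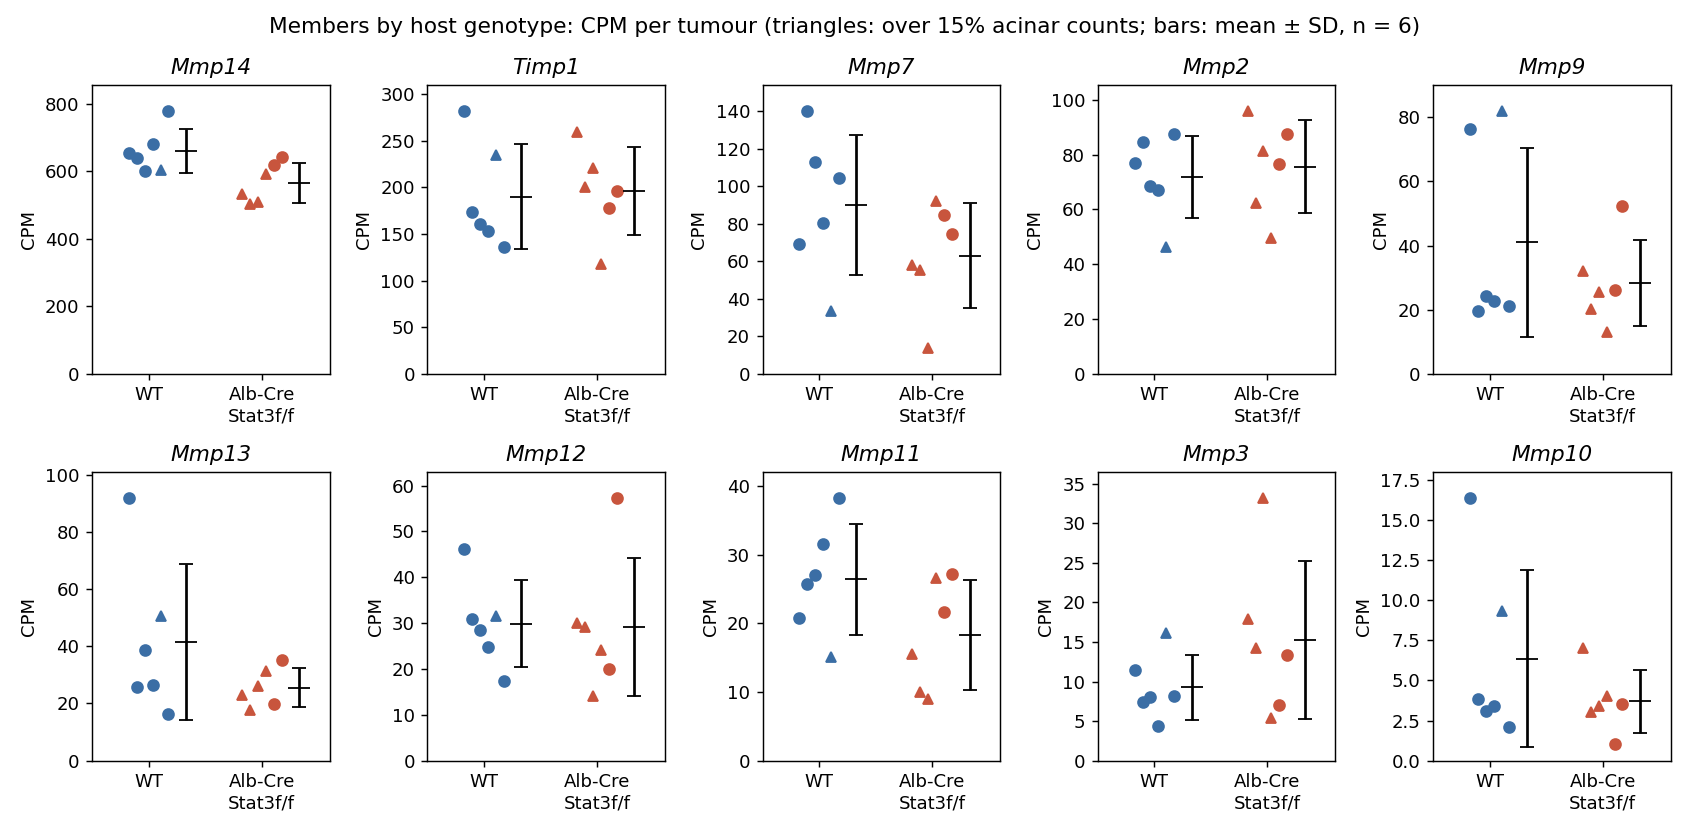
CPM (vertical axis, from 0, a separate scale in each panel) of the 10 genes in the 6 WT (blue) and 6 Alb-Cre Stat3f/f (red) tumours, with genes ordered by mean level, triangles for the 5 tumours with over 15% acinar counts, and black bars for the mean ± SD (n = 6). The genotypes overlap in every panel, and in Mmp9, Mmp10 and Mmp13 the 2 highest values belong to WT 1 and WT 5.

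Mmp14 was the most abundant of the 10 and Mmp10 the least. Averaged over the 12 tumours, Mmp14 had 613 CPM and Timp1 193, followed by Mmp7 with 76.5, Mmp2 with 73.7, Mmp9 with 34.6, Mmp13 with 33.5, Mmp12 with 29.5, Mmp11 with 22.4, Mmp3 with 12.2 and Mmp10 with 5.02. Mmp14 lay above Timp1 in 12 of 12 tumours, and Timp1 above Mmp7 in 12 of 12. Mmp7 was above Mmp2 in 6 of 12 tumours, Mmp9 above Mmp13 in 6 of 12 and Mmp13 above Mmp12 in 6 of 12, so the order within these neighbours was not fixed. Mmp12 was above Mmp11 in 8 and Mmp11 above Mmp3 in 8 of 12, while Mmp2 was above Mmp9 in 11 and Mmp3 above Mmp10 in 11. Mmp14 alone held 61.6 to 72.5% of the tags of the 9 metalloproteinases in a tumour. Mmp14 also varied least and Mmp10 most: the coefficient of variation over 12 tumours was 12.5% for Mmp14 and 83.4% for Mmp10, whose highest tumour had 16.0 times the CPM of its lowest.

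Of the genes above, Mmp13, Mmp12, Mmp3, Mmp10 and Mmp7 lie in 1 cluster of 10 metalloproteinase genes on chromosome 9 (7272514 to 7699585, GRCm38, GENCODE M21). By start and end they lie at 7272514 to 7283331 (Mmp13), 7344381 to 7369499 (Mmp12), 7445822 to 7455975 (Mmp3), 7502352 to 7510240 (Mmp10) and 7692090 to 7699585 (Mmp7), all on the plus strand. Mmp11 lies on chromosome 10 (75923222 to 75936496, minus strand), Mmp14 on chromosome 14 (54431612 to 54445364), Mmp9 on chromosome 2 (164940780 to 164955850), Mmp2 on chromosome 8 (92827291 to 92853420) and Timp1 on chromosome X (20870166 to 20874735), these 4 on the plus strand. The 250 bases before the start site were available for 8 of the 10 genes (RefSeq, GRCm38.p6), with no entry used for Mmp2 and Mmp9. They are shown for the 4 cluster genes with the AP-1 motif TGANTCA (in capitals) before their first listed start site, because this motif is the classical response element of inducible metalloproteinase promoters, and each runs 5' to 3' on the gene's strand up to the base before the start.
Mmp13 (chr9:7272264-7272513, + strand): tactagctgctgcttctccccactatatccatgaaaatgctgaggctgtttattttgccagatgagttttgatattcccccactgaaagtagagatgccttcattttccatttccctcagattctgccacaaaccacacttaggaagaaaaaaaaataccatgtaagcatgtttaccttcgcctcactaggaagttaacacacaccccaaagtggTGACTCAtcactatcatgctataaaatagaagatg
Mmp3 (chr9:7445572-7445821, + strand): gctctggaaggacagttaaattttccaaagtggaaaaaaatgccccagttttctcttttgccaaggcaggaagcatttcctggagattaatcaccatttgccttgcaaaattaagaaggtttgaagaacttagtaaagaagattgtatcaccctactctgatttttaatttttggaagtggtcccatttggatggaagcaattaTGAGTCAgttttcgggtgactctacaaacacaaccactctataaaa
Mmp10 (chr9:7502092-7502341, + strand): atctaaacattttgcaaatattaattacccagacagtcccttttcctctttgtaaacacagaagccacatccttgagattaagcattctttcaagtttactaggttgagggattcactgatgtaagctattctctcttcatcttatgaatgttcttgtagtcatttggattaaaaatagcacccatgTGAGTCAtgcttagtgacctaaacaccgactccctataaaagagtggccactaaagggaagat
Mmp7 (chr9:7691840-7692089, + strand): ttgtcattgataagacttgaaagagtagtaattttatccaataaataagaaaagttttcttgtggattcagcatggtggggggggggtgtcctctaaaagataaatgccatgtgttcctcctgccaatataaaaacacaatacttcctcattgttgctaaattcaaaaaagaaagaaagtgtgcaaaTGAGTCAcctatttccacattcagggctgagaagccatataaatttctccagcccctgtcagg

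TGANTCA reads the same on both strands and was found once in each of these, 35 to 29 bases before the start in Mmp13, 46 to 40 in Mmp3, and 63 to 57 in both Mmp10 and Mmp7. It was also found once before the second listed start site of Mmp12 (44 to 38 bases) and not before its first, nor before the second site of Mmp7, nor before the starts of Mmp11, Mmp14 and Timp1. Of all 32851 listed promoter windows of this length, 2217 (6.749%) hold it. A match is a description of the sequence, not a bound site.

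Mmp14 encodes the membrane-anchored MT1-MMP, which cuts fibrillar collagen at the cell surface and activates pro-MMP2. In WT tumours it had a lowest value of 600.3, a median of 648 and a highest of 779 CPM, and in Alb-Cre Stat3f/f tumours 503, 563 and 641 CPM. The lower 4 of the 6 Alb-Cre Stat3f/f tumours lay below every WT tumour, and the other 2 overlapped with WT. The means were 660.2 ± 65.4 and 566 ± 58.9 CPM (SD, n = 6 each). The log2 fold change was -0.22 ± 0.10 (SE) and did not pass (edgeR's Benjamini-Hochberg adjusted p = 0.231). The 4 low tumours were those with over 15% acinar counts in that genotype. Over the 12 tumours, with each genotype's mean removed, log2 CPM of Mmp14 had r = -0.74 with the acinar score (the mean log2 CPM of the acinar genes). With that score as a covariate the log2 fold change was -0.12 (edgeR's unadjusted p = 0.255), and without the 5 acinar-rich tumours -0.09 (edgeR's unadjusted p = 0.524). Left out singly, WT 1, 4 or 6 or Alb-Cre Stat3f/f 1, 2 or 3 also took edgeR's unadjusted p above 0.05.

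The gelatinases Mmp2 and Mmp9 cut denatured collagen and type IV collagen of basement membranes. Mmp2, in tumours largely a product of fibroblasts, had 46.3, 72.8 and 87.6 CPM (lowest, median, highest) in WT and 49.6, 78.9 and 95.8 CPM in Alb-Cre Stat3f/f tumours. The ranges overlapped almost fully. Its log2 fold change was 0.07 ± 0.16 (95% interval -0.27 to 0.41), and its sign was negative without WT 5 (-0.03) or Alb-Cre Stat3f/f 1 (-0.01). Mmp9, which neutrophils and macrophages store or secrete, had 19.6, 23.5 and 81.9 CPM in WT and 12.9, 25.9 and 52.2 CPM in Alb-Cre Stat3f/f tumours. The WT mean of 41.0 ± 29.6 CPM (SD) was set by WT 5 (81.9 CPM) and WT 1 (76.2 CPM), and the other 4 WT tumours lay between 19.6 and 24.2 CPM. The Mmp9 log2 fold change was -0.53 ± 0.48 (edgeR's Benjamini-Hochberg adjusted p = 0.601), and 0.26 without the acinar-rich tumours. Left out in turn, WT 1 gave -0.25, WT 5 gave -0.21 and Alb-Cre Stat3f/f 6 gave -0.82.

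The neutrophil markers ran against Mmp9 from tumour to tumour. Their summed level ran from 63.8 to 229 CPM in WT and from 98.2 to 201 CPM in Alb-Cre Stat3f/f tumours, 0 of 6 tested markers passed between genotypes, and none of the 12 was at 0 in every tumour. WT 1 and WT 5, the tumours with the most Mmp9, had the lowest neutrophil sums (63.8 and 71.6 CPM). Over 12 tumours Mmp9 had r = -0.77 with the neutrophil score, made from the 6 tested markers only. It had r = 0.71 with the fibroblast score, 0.51 with the endothelial score and 0.43 with the macrophage score. These correlations are descriptions over tumours that share libraries and scaling.

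Mmp13 is the main interstitial collagenase of mice, where Mmp1a and Mmp1b, the counterparts of human MMP1, had 0 counts in all 12 tumours. Mmp13 had 16.2, 32.5 and 91.9 CPM (lowest, median, highest) in WT and 17.5, 24.5 and 35.2 CPM in Alb-Cre Stat3f/f tumours. WT 1 (91.9 CPM) and WT 5 (50.5 CPM) were the 2 highest, and the SD was 27.4 CPM in WT and 6.79 CPM in Alb-Cre Stat3f/f tumours; whether the spread differs was not tested. The log2 fold change was -0.70 ± 0.38 (edgeR's Benjamini-Hochberg adjusted p = 0.351), -0.30 without WT 1 and -0.87 without WT 6. It was -0.94 with the acinar score as a covariate (edgeR's Benjamini-Hochberg adjusted p = 0.332) and -0.53 without the acinar-rich tumours.

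The stromelysins Mmp3 and Mmp10 have a broad range of matrix substrates and activate other pro-metalloproteinases. Both lie in the chromosome 9 cluster, with Mmp1a between them, and had fold changes of opposite sign. Mmp3 had 4.38, 8.08 and 16.2 CPM in WT and 5.41, 13.8 and 33.2 CPM in Alb-Cre Stat3f/f tumours. Alb-Cre Stat3f/f 3 (33.2 CPM) and 1 (18.0 CPM) lay above every WT tumour. The Mmp3 log2 fold change was 0.70 ± 0.41 (edgeR's Benjamini-Hochberg adjusted p = 0.381), 0.32 without Alb-Cre Stat3f/f 3, 0.19 with the acinar score as a covariate and 0.37 without the acinar-rich tumours. It rests on 414 counts in the WT group and 514 in the Alb-Cre Stat3f/f group.

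Mmp10 had 2.08, 3.63 and 16.4 CPM (lowest, median, highest) in WT and 1.03, 3.49 and 7.04 CPM in Alb-Cre Stat3f/f tumours, from 298 and 132 counts. The medians were close, and WT 1 (16.4 CPM) and WT 5 (9.32 CPM) held the top values. The Mmp10 log2 fold change was -0.79 ± 0.51 (edgeR's Benjamini-Hochberg adjusted p = 0.421) and -0.23 without WT 1. Within genotypes its level followed the acinar score (r = 0.76 over 12 tumours), while the genotype with more acinar counts had the lower Mmp10 mean. With that score as a covariate the Mmp10 log2 fold change was -1.53 ± 0.40 (edgeR's Benjamini-Hochberg adjusted p = 0.0625), and without the acinar-rich tumours -1.34, neither of which passed.

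Mmp11, called stromelysin 3, is typical of fibroblasts around carcinomas and is activated inside the cell by furin. It had 15.04, 26.4 and 38.3 CPM in WT and 9.002, 18.6 and 27.2 CPM in Alb-Cre Stat3f/f tumours. Alb-Cre Stat3f/f 2 and 3, at 10.05 and 9.002 CPM, lay below every WT tumour. Its log2 fold change was -0.51 ± 0.28 (95% interval -1.11 to 0.09, edgeR's Benjamini-Hochberg adjusted p = 0.346), and -0.13 when the acinar score was a covariate. The Mmp11 gene overlaps Chchd10 on the opposite strand over 3367 bases, and Chchd10 had 1335 counts over the 12 tumours. Without a stated strand setting, reads of the overlapping part cannot be told apart.

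Mmp7, or matrilysin, is made by epithelial cells, including ducts and pancreatic carcinoma cells. It had 33.3, 92.5 and 140 CPM in WT and 13.7, 66.3 and 91.9 CPM in Alb-Cre Stat3f/f tumours. The lowest value, 13.7 CPM, belonged to Alb-Cre Stat3f/f 3 (42.3% acinar counts) and the lowest of WT to WT 5 (22.0% acinar counts). The Mmp7 log2 fold change was -0.51 ± 0.43 (edgeR's Benjamini-Hochberg adjusted p = 0.565), -0.30 without Alb-Cre Stat3f/f 3 and -0.11 when the acinar score was a covariate. The epithelial markers were lower in Alb-Cre Stat3f/f tumours at the same time: their summed level was 3770 to 4614 CPM in the WT group and 2874 to 3636 CPM in the Alb-Cre Stat3f/f group. As a percent of all counts, without TMM scaling, the groups overlapped. The medians were then 0.52% in WT (0.35 to 0.58%) and 0.28% in Alb-Cre Stat3f/f tumours (0.17 to 0.47%). Of 11 epithelial markers tested, 10 had a negative fold change and 2 (Sox9 and Krt7) fell in the same edgeR test. Of all genes tested, 0.747% fell and 50% had a negative fold change. Per 1000 CPM of epithelial markers, a ratio chosen after the values were seen, Mmp7 had a median of 20.7 in the WT group and 19.7 in the Alb-Cre Stat3f/f group. By the same ratio Mmp14 had 160 (132 to 169) and 173 (157 to 182), with 4 of 6 Alb-Cre Stat3f/f tumours above every WT tumour, the opposite direction to its CPM. Per 1000 CPM of fibroblast markers Mmp14 had 113 (78.8 to 139) and 71.2 (59.7 to 108), with 4 of 6 below every WT tumour, so the direction of such a ratio depends on the markers. These ratios were not tested.

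Mmp12, the macrophage elastase, had 17.3, 29.7 and 46.2 CPM in WT and 14.1, 26.6 and 57.3 CPM in Alb-Cre Stat3f/f tumours. Alb-Cre Stat3f/f 6 was the highest of the 12 and Alb-Cre Stat3f/f 3 the lowest. The Mmp12 log2 fold change was -0.03 ± 0.31 (95% interval -0.69 to 0.63), -0.36 without Alb-Cre Stat3f/f 6 and 0.14 without WT 1. The macrophage markers, none of them at 0, moved between the genotypes while Mmp12 did not pass. All 12 had a positive fold change (median 0.69), and 7 rose and 0 fell, where 2.23% of all genes rose. Their summed level was 1099 to 1659 CPM in the WT group and 1666 to 2576 CPM in the Alb-Cre Stat3f/f group. As a percent of all counts, without TMM scaling, the groups overlapped. The medians were then 0.169% in WT (0.127 to 0.211%) and 0.168% in Alb-Cre Stat3f/f tumours (0.110 to 0.300%). Over the 12 tumours, within genotypes, Mmp12 had r = 0.05 with the macrophage score. Mmp12 per 1000 CPM of macrophage markers was a ratio chosen after the values were seen. Its median was 19.6 (13.4 to 42.0) in WT and 13.7 (5.64 to 22.2) in Alb-Cre Stat3f/f tumours. Of the latter, 3 of 6 lay below every WT tumour. The ratio was not tested, and the marker CPM it divides by was itself higher in Alb-Cre Stat3f/f tumours.

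Timp1, which inhibits most of these enzymes and also acts as a secreted signal, had 136, 167 and 282 CPM in the WT group and 118, 199 and 260 CPM in the Alb-Cre Stat3f/f group. The genotypes overlapped over nearly the whole range, and WT 1 was the highest of the 12. Its log2 fold change was 0.04 ± 0.20 (95% interval -0.39 to 0.47, edgeR's Benjamini-Hochberg adjusted p = 0.934), 0.19 without WT 1 and -0.10 when the acinar score was a covariate. CPM of Timp1 divided by the summed CPM of the 9 metalloproteinases was 0.127 to 0.265 in WT and 0.141 to 0.320 in Alb-Cre Stat3f/f tumours. Mmp14 made up 61.6 to 72.5% of that sum in a tumour. The ratio compares RNA levels and does not measure inhibition. The fibroblast markers had r = 0.87 with Timp1 over the 12 tumours. In those 12 markers 9 fold changes were positive and 3 negative, and 1 rose (Dcn) while 0 fell. Of all genes tested, 2.23% rose, 0.747% fell and 50% had a negative fold change. Fbln2 had a log2 fold change of -0.46, with all 6 Alb-Cre Stat3f/f tumours below every WT tumour (edgeR's Benjamini-Hochberg adjusted p = 0.0501). The summed level of the markers was 4617 to 8318 CPM in the WT group and 5707 to 8817 CPM in the Alb-Cre Stat3f/f group. Timp1 lies inside Syn1 on the opposite strand (4570 bases shared), and Syn1 had 215 counts in all.

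**Figure D2:**
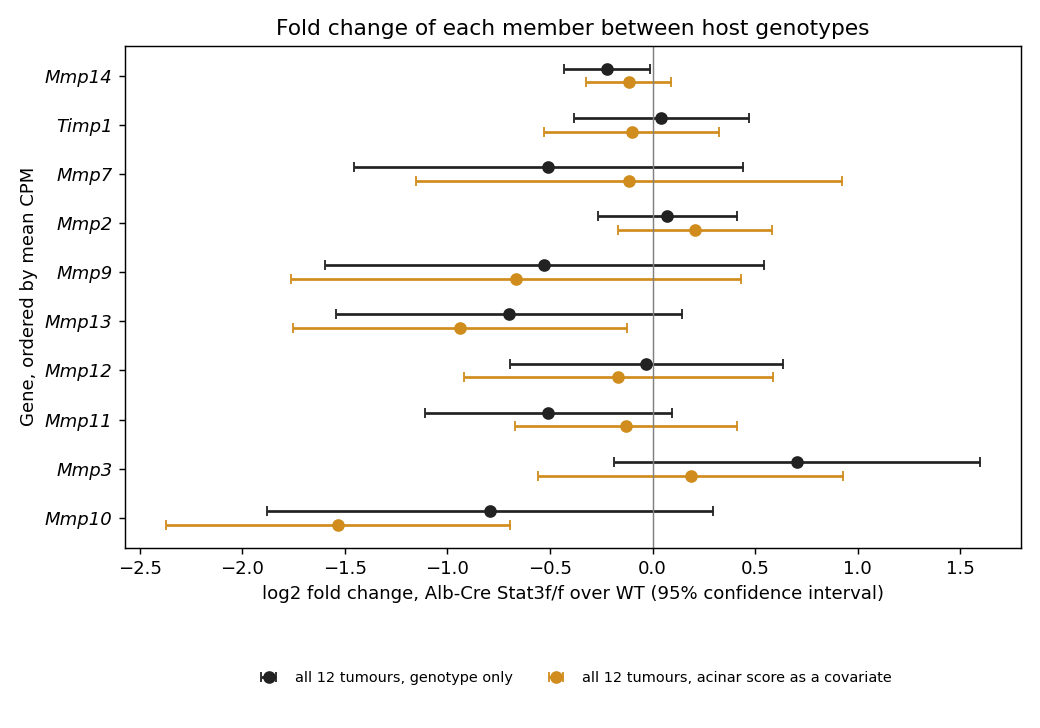
Log2 fold change of Alb-Cre Stat3f/f over WT (horizontal axis) with its 95% confidence interval for the 10 genes (vertical axis, ordered by mean CPM), from edgeR with genotype as the sole term (black) and with the acinar score added (orange). Mmp3, Mmp7, Mmp11 and Mmp14 lie nearer 0 with the covariate (0.19, -0.11, -0.13 and -0.12). The others lie farther from 0, most of all Mmp10 (-1.53) and Mmp13 (-0.94).

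Some of the genes varied together from tumour to tumour and some against each other. With each genotype's mean removed, Pearson r of log2 CPM over the 12 tumours was at least 0.5 in 14 of 45 pairs and at most -0.5 in 5. The most alike were Mmp11 and Mmp14 (r = 0.85), Mmp9 and Timp1 (0.80), Mmp7 and Mmp11 (0.78), Mmp10 and Mmp13 (0.77) and Mmp3 and Timp1 (0.75). The most opposed were Mmp3 and Mmp7 (-0.80) and Mmp3 and Mmp11 (-0.77). Within Mmp3, Mmp9, Mmp10, Mmp13 and Timp1, a set drawn after the values were seen, 10 of 10 pairs were positive. Mmp7, Mmp11 and Mmp14, a set drawn in the same way, were positive with one another in 3 of 3 pairs. They were negative with those 5 genes in 15 of 15. These counts follow in part from the choice of the sets. The 5 cluster genes with an AP-1 match did not share 1 pattern: Mmp13, Mmp3 and Mmp10 varied with Timp1, and Mmp7 against them. Mmp12 was placed in neither set. In the first it had r = 0.60 with Mmp13, 0.58 with Mmp9, 0.54 with Mmp10, 0.40 with Timp1 and 0.02 with Mmp3. In the second it had r = 0.28 with Mmp7, 0.12 with Mmp11 and 0.03 with Mmp14. These values are descriptions: the tumours share libraries and scaling factors, and Mmp2 lay between -0.25 and 0.28 with every other gene. WT 1 carried part of the pattern, since 9 pairs reached 0.5 without it, an alternative chosen after seeing the data. With the acinar score removed as well, 14 pairs were at 0.5 or above, but only 8 of the 15 pairs between the sets were negative.

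**Figure D3:**
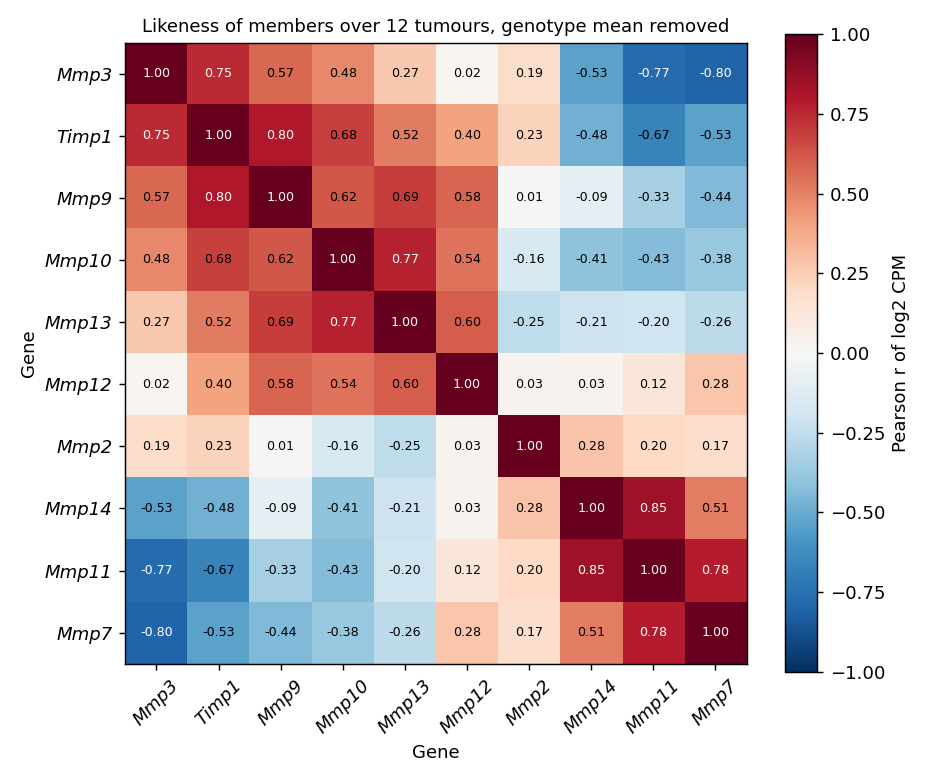
Pearson r (colour and printed value) of log2 CPM between each pair of the 10 genes over 12 tumours, after the mean of each genotype was removed, with genes on both axes. Red blocks hold Mmp3, Timp1, Mmp9, Mmp10 and Mmp13 at the upper left and Mmp14, Mmp11 and Mmp7 at the lower right, and the pairs between them are negative (blue), down to -0.80.

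The acinar score had the sign of the same divide, with different strength. The within-genotype r with the acinar score was 0.76 for Mmp10, 0.58 for Mmp3, 0.50 for Mmp13, 0.43 for Timp1 and 0.29 for Mmp9, close to the 0.26 of Mmp12 outside that set, and -0.74 for Mmp14, -0.67 for Mmp11 and -0.56 for Mmp7. The fibroblast score had r = 0.87 with Timp1, 0.81 with Mmp3, 0.71 with Mmp9 and 0.63 with Mmp10, but -0.51 with Mmp11, a gene known from fibroblasts. The endothelial score had r = 0.79 with Mmp3 and -0.79 with Mmp11.

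**Figure D4:**
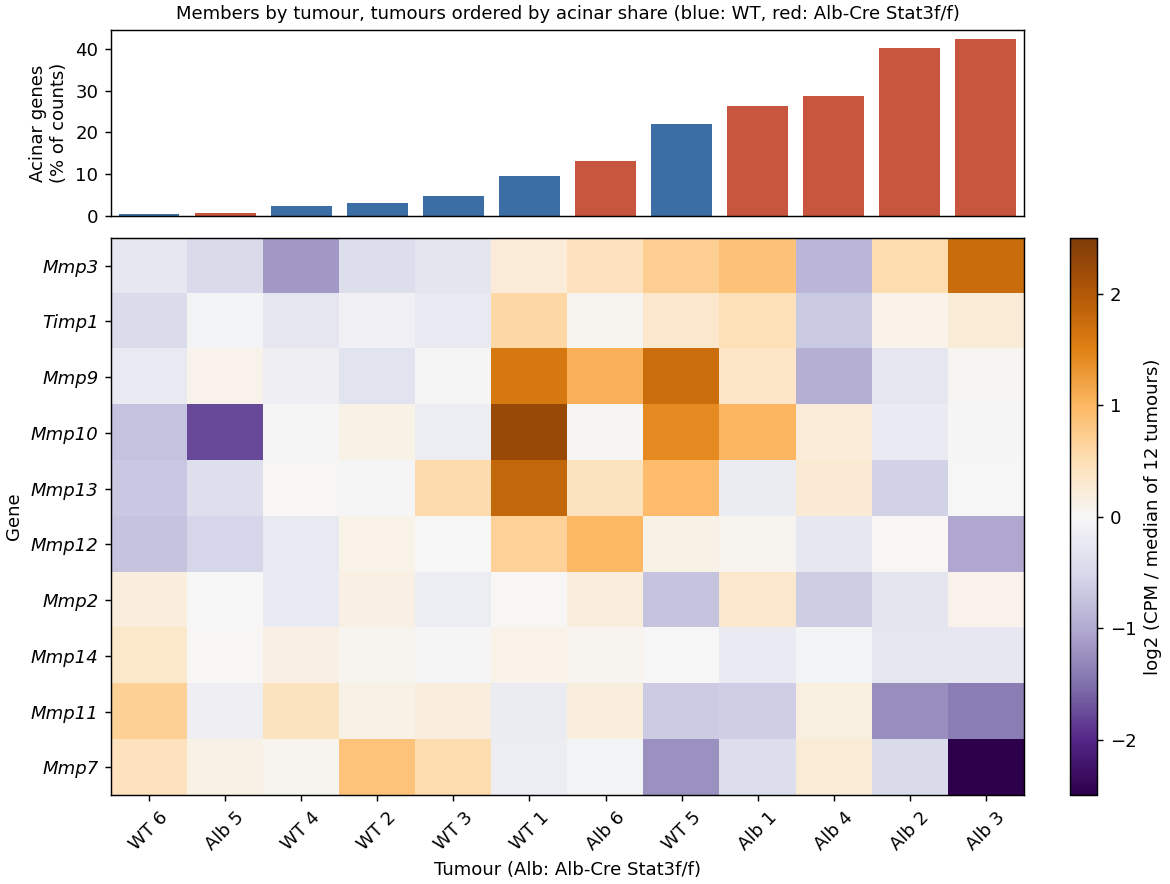
The upper panel gives the percent of counts in acinar genes in each tumour, in rising order (blue bars for WT, red for Alb-Cre Stat3f/f), and the lower panel the log2 ratio of each gene's CPM to its median over the 12 tumours (colour, purple below and orange above the median). Mmp7 and Mmp11 are lowest in Alb-Cre Stat3f/f 3, the tumour with the largest acinar share (42.3%), where Mmp3 is highest.

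Over 10320 genes with at least 5 CPM on average, the genes most like each member by the same measure (n = 12, genotype means removed) were as follows. For Mmp3 they were Cdkn1a, the cell cycle inhibitor p21 (r = 0.94), Col4a1, a basement membrane collagen (0.93), and Grb10 (0.93). For Timp1 they were Cinp (0.94), Itga5, the fibronectin receptor subunit (0.93), and Sdc3 (0.91). For Mmp9 they were Adgra2 (0.90), Msr1, a macrophage scavenger receptor (0.89), and Ggct (0.88). Mmp7 was most like Dclk1, a kinase found in tuft cells (0.96), Taf1a and Mtss1. Mmp11 was most like Limk2, a kinase of the actin cytoskeleton (0.97), Ddx52 and Otulin, and Mmp14 most like Rgs12 (0.91), Hcfc1 and Ephx2. Mmp2 was most like Lhfpl2 (0.92), Sfrp1 and Zfp524, Mmp10 like Efna2 (0.96), Lix1l and Pbdc1, Mmp12 like Ccnt1 (0.90), Tbc1d2b and Ereg, and Mmp13 like Dot1l (0.90), Prr11 and Zfp598. These are the highest of 10320 values per gene, so their size follows in part from the choice.

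Other genes of metalloproteinase biology were set beside all genes tested. Of 77 in 5 lists, 61 were tested, 0 rose and 2 fell. Of all genes tested 2.98% passed, 2.23% as higher and 0.747% as lower. Whether the lists differ from all genes was not tested. Among 14 other metalloproteinases 5 were tested and 0 passed. Mmp15, another membrane-type enzyme, had a log2 fold change of 0.56 ± 0.26 and Mmp25, a leukocyte enzyme, 0.71 ± 0.38 (edgeR's Benjamini-Hochberg adjusted p = 0.247 and 0.320), both at under 10 CPM in each genotype. Among 7 other inhibitors 4 were tested and 0 passed. Timp2, which takes part in MT1-MMP activation of pro-MMP2, had 1853 ± 325 CPM in the WT group and 1472 ± 317 CPM in the Alb-Cre Stat3f/f group, more than any gene of the main set, with a log2 fold change of -0.33 ± 0.15 (edgeR's Benjamini-Hochberg adjusted p = 0.227). Spock2, a proteoglycan that bears on MT-MMP activity, had -0.43 ± 0.45, and -0.24, -0.26 and -0.27 without WT 2, WT 6 and Alb-Cre Stat3f/f 1 in turn. With the acinar covariate the log2 fold changes were -0.12 for Timp2, -0.19 for Spock2 and 0.34 for Mmp15. Without the acinar-rich tumours they were -0.16, -0.17 and 0.32, and 1.24 for Mmp25, with none passing.

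Among the 16 ADAM and ADAMTS proteases, all tested, 1 fell and 0 rose. Adamts1, which cuts the proteoglycan versican, had 48.3, 62.6 and 67.0 CPM (lowest, median, highest) in WT and 24.4, 33.1 and 58.4 CPM in Alb-Cre Stat3f/f tumours, and 5 of the 6 latter lay below every WT tumour. It fell by 0.72 ± 0.17 on the log2 scale (edgeR's Benjamini-Hochberg adjusted p = 0.0232). The call was lost with the acinar score as a covariate (-0.63, edgeR's adjusted p = 0.1001), without the acinar-rich tumours (-0.69, 0.0911), without WT 3, 4 or 6 (0.0577, 0.0533 and 0.0527) and without Alb-Cre Stat3f/f 1, 2 or 6 (0.0663, 0.0579 and 0.0522).

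Of 20 genes of activation and surface docking 19 were tested, 1 fell and 0 rose. Itgb3, the integrin beta 3 subunit that with alpha v can hold active MMP2 at the cell surface, had 23.1, 24.5 and 29.5 CPM in WT and 8.14, 16.3 and 18.5 CPM in Alb-Cre Stat3f/f tumours. All 6 Alb-Cre Stat3f/f tumours lay below every WT tumour. It fell by 0.72 ± 0.17 on the log2 scale (edgeR's Benjamini-Hochberg adjusted p = 0.0232). Among other settings, that call was lost with the acinar score as a covariate (-0.64, edgeR's adjusted p = 0.0836), without the acinar-rich tumours (-0.47, 0.328), and when either WT 1 (0.0572) or Alb-Cre Stat3f/f 2 (0.0509) was left out. Among 20 inducers and transcription factors 17 were tested and 0 passed, with a median log2 fold change of -0.17. Fos, a subunit of AP-1, had 20.6 ± 11.2 CPM in WT and 9.77 ± 5.39 CPM in Alb-Cre Stat3f/f tumours, with a log2 fold change of -1.10 ± 0.42 that did not pass (edgeR's Benjamini-Hochberg adjusted p = 0.178), and -1.81 without the acinar-rich tumours, where it did not pass either. Runx2, an activator of Mmp13 in bone, had 59.3 ± 7.997 CPM in WT and 45.7 ± 5.78 CPM in Alb-Cre Stat3f/f tumours (log2 fold change -0.37 ± 0.12, edgeR's Benjamini-Hochberg adjusted p = 0.0854), with 6 of 6 below every WT tumour. By DESeq2 Runx2 passed, with a Benjamini-Hochberg adjusted p of 0.0416.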

How the data were processed

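RNA was measured in 12 tumours, 6 per host genotype, from fixed tissue with QuantSeq 3' FWD libraries, per the labels. The deposited values are whole-number counts per gene symbol made by the authors without normalisation. The submitters' processing notes name STAR and mm10; the sources used here give no version, counting tool, annotation or strand setting. Of 24982 entries, 26 held a date number in place of a symbol and were left out (0.0690 to 0.166% of counts). Counts were fitted in R 4.3.3 with edgeR 4.0.16: filterByExpr (minimum count 10, minimum total 15, large-group proportion 0.7), TMM (factors 0.578 to 1.29) and a robust two-sided quasi-likelihood test on genotype, Benjamini-Hochberg adjusted over 12856 genes, threshold 0.05. Log2 CPM used a prior count of 2. DESeq2 1.42.0 and other settings were alternatives. The code was tested on simulated data. The members and lists were chosen with earlier results of these data known. Named genes were all members, Stat3, list members past the threshold (otherwise the 2 with the smallest p), and the 3 genes most like each member among those of at least 5 CPM, predicted genes skipped.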

Additional observations from a re-analysis of the deposited data

Results flagged for a closer look

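Mmp12 in Alb-Cre Stat3f/f 6 was 57.3 CPM, far from the other 5 tumours of its genotype, of which the nearest had 29.9 CPM. The gap was 0.634 of the genotype's range, above the 95% critical value of Dixon's test for 6 values. It was 1 of 20 gene and genotype groups tested, and chance flags about 1 in 20. Without this tumour the Mmp12 log2 fold change was -0.36.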

How the results depend on the processing

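Over 20 alternatives per gene, 0 of the 10 genes passed as higher or lower in any, and 186 of 199 gene and setting values kept their sign. The 13 that did not were in 4 genes. With 1 tumour left out, Mmp2 ran from -0.026 to 0.17 (negative without WT 5 or Alb-Cre Stat3f/f 1), Mmp12 from -0.36 to 0.14 (positive in 4 cases: WT 1, or Alb-Cre Stat3f/f 3, 4 or 5, left out) and Timp1 from -0.056 to 0.19 (negative in 4 cases: WT 3, 4 or 6, or Alb-Cre Stat3f/f 1, left out). Timp1 was -0.10 with the acinar covariate, and without the acinar-rich tumours Mmp9 was 0.26 and Mmp12 0.39. Mmp10 could not be tested at 5 CPM or more in 6 tumours. The 2 list genes that fell became 5 by DESeq2, 0 with the acinar covariate, 0 without the acinar-rich tumours and 1 to 4 with 1 tumour left out; list genes that rose were 0 to 1 with 1 left out. Over all genes, the 287 higher and 96 lower became 618 and 288 by DESeq2, 134 and 36 with the acinar covariate, 83 and 14 without the acinar-rich tumours (5 WT and 2 Alb-Cre Stat3f/f tumours left), and 141 to 471 and 37 to 222 with 1 left out. The acinar difference was 14.8 to 23.1 percentage points with 1 left out. The number of alike pairs fell from 14 to 9 without WT 1. The cause of these changes was not tested. Replicate numbers did not pair the tumours (0 of 6 correlated best with their own number); with them as a replicate block 145 genes were higher and 44 lower, and the members stayed at 0. In that block fit of edgeR, Itgb3 no longer passed (Benjamini-Hochberg adjusted p = 0.0509) and Fos did (0.0345). Depth limits Mmp10 most, with 8 to 144 counts a tumour.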
